A study of Arabidopsis thaliana with 12 samples.

Results

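The mitochondrion-encoded genes of Arabidopsis thaliana were described in total RNA from 21-day seedlings of 4 genotypes with 3 libraries each, namely the double mutant dxo1-2 xrn3-8, its parents dxo1-2 and xrn3-8 as single mutants, and Col-0, the wild type. The genes were taken by their identifiers. Of the rows that start with ATMG, the prefix of the mitochondrial genome, 104 had at least 10 counts in at least 3 of the 12 libraries and are the members, and 48 did not. The 48 rows left out reached no more than 16 counts in any library, and 3 of them were at 0 throughout. Plants were grown on soil in 16 h light and 8 h dark after 2 days at 4 °C, and the labels give no agent or age that differs between genotypes. The series' design text states that the 4 genotypes were grown and sequenced side by side with biological replicates. The Col-0, dxo1-2 and xrn3-8 libraries had also been deposited earlier, and only those of the double mutant were added with the present series.

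The plant mitochondrial genome encodes a small part of the respiratory chain, of the ATP synthase, of the cytochrome c maturation machinery and of the mitochondrial ribosome, while the nucleus encodes the rest. Its transcripts are made by phage-type RNA polymerases, are often cotranscribed, edited from C to U, spliced and trimmed, and their amounts depend strongly on RNA decay inside the organelle. XRN3 is a 5′ to 3′ exoribonuclease of the nucleus, and DXO1 removes NAD caps from the 5′ ends of RNA. A large copy of the mitochondrial genome is also inserted near the centromere of nuclear chromosome 2 in Col-0. In the reference build used here several rows of the count tables carry the same sequence as a mitochondrial row.

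The count tables do not pair ATMG identifiers with gene names. The RefSeq annotation of TAIR10.1 tied 53 of the ATMG identifiers to 55 nuclear genes, all on chromosome 2, by a note of best protein match or of pseudogene origin, and 12 of these mitochondrial genes could also be placed by symbol in its mitochondrial genome. Through these notes 22 members had a described product, and the other members are given by identifier alone. All 12 placed genes (ccmFC, rpl5, cob, rps4, atp8, cox3, ccmC, rps12, nad3, atp9, atp1 and rps7) were identical to chromosome 2 over their whole length, with 0 mismatches and 0 gaps. Reads of such a stretch cannot be told apart by sequence in this build. The whole of atp9, which encodes the ring subunit of the ATP synthase, is shown from both places because the counts of its nuclear row were among the largest in the set, with the start and stop codons in capitals. The mitochondrial copy lies at bases 270961 to 271185 of the mitochondrial genome on the minus strand, and the nuclear copy at chr2:3251856-3252080 on the minus strand.
atp9, mitochondrial genome: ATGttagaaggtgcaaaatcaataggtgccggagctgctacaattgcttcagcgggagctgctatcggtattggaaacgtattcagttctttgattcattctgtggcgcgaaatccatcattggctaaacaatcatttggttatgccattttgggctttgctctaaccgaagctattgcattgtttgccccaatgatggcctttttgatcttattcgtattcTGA
atp9, chromosome 2: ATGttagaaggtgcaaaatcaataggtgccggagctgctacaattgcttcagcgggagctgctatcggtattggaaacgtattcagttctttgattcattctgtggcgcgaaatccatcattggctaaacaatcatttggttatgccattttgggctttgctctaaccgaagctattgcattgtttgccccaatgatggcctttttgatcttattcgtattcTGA
The first 120 bases of cob (apocytochrome b, bases 182739 to 182858 of the mitochondrial genome, minus strand, and chr2:3450863-3450982, plus strand) and of atp8 (ATP synthase subunit 8, bases 247373 to 247492, minus strand, and chr2:3386292-3386411, plus strand) are shown because both genes were lower in dxo1-2, with the start codon in capitals. Each reads the same in both places.
cob: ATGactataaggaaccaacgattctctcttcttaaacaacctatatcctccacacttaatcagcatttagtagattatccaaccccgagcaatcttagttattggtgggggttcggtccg
atp8: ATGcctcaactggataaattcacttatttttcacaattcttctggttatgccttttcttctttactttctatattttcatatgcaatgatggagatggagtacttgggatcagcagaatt
Coordinates are those of RefSeq TAIR10.1. The counts were made on TAIR10, per the submitters' processing notes, and the mitochondrial sequence of that build was not analysed here and may differ from the one printed. Reads not aligned uniquely were counted at no gene, yet both rows of atp9 and of cob held counts, as given below. The identity shown is therefore that of TAIR10.1 and need not hold for the rows as counted.

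Counts assigned to genes summed to 60138933 to 81494915 per library, with a median of 69919857, and the ATMG rows held 368838 to 585568 of them. Of the members, 90 had at least 10 counts in all 12 libraries, and 103 entered the test across 21974 genes, while ATMG00870 was too low for it. Levels are given as CPM, counts scaled to a fixed total of gene counts per library, after correction of the totals by the trimmed mean of M-values (TMM-scaled CPM), which sets the bulk of genes equal between libraries. DXO1 (AT4G17620) had 2.97 to 3.13 CPM in dxo1-2 xrn3-8, 1.29 to 1.73 in dxo1-2 and 9.62 to 10.4 in xrn3-8, against 8.62 to 8.93 in Col-0. XRN3 (AT1G75660) had 38.1 to 44.1 CPM in dxo1-2 xrn3-8, 58.3 to 59.6 in dxo1-2 and 20.05 to 23.03 in xrn3-8, against 51.4 to 52.1 in Col-0. In the double mutant XRN3 thus lay nearer to Col-0 than in xrn3-8. The sum of 3 leaf markers (CAB3, RBCS1A and RBCS3B) was 3784 to 4694 CPM in dxo1-2 xrn3-8, 6359 to 8128 in dxo1-2 and 5308 to 6495 in xrn3-8, against 7915 to 8774 in Col-0. The sum of 4 root markers was between 0.0117 and 0.196 CPM in every library, so the defining root genes were at or near 0 in these seedlings. Leaf markers moved with genotype, and their part in the results below was not tested.

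The ATMG rows took a larger share of all gene counts in the double mutant and in xrn3-8 than in Col-0. The share was 0.785 ± 0.0106% in dxo1-2 xrn3-8, 0.619 ± 0.0106% in dxo1-2 and 0.748 ± 0.0254% in xrn3-8, against 0.605 ± 0.0130% in Col-0 (SD, n = 3 each). The libraries of the double mutant and of xrn3-8 lay above all Col-0 libraries (exact permutation test, two-sided, p = 0.1 each, the smallest p that 3 against 3 libraries allow, adjusted p = 0.15 over 3 mutants). Those of dxo1-2 overlapped Col-0 (exact permutation p = 0.3, adjusted p = 0.3). In bulk seedlings, a change in the number of cells or organelles and a change in RNA per cell or organelle cannot be told apart.

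The choice of denominator moved these shares. Plastid-encoded rows took 43.7 ± 2.29% of the gene counts in dxo1-2 xrn3-8, 48.0 ± 0.491% in dxo1-2 and 51.2 ± 2.22% in xrn3-8, against 51.3 ± 0.465% in Col-0 (SD, n = 3 each). With plastid-encoded rows left out of the total, the ATMG share was 1.39 ± 0.0392% in dxo1-2 xrn3-8, 1.19 ± 0.0202% in dxo1-2 and 1.53 ± 0.0267% in xrn3-8, against 1.24 ± 0.0168% in Col-0. On this scale no mutant overlapped Col-0, with dxo1-2 below it and the other mutants above (exact permutation p = 0.1 and adjusted p = 0.1 for each). After TMM scaling the ATMG rows summed to 6824 ± 34.6 CPM in dxo1-2 xrn3-8, 6226 ± 49.97 CPM in dxo1-2 and 7539 ± 219 CPM in xrn3-8, against 6861 ± 73.5 CPM in Col-0. A mitochondrial pool above Col-0 was therefore measured on all 3 scales in xrn3-8, while the double mutant lay above Col-0 on both shares and overlapped it after TMM scaling, and dxo1-2 lay below Col-0 on 2 of the 3 scales.

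**Figure D1:**
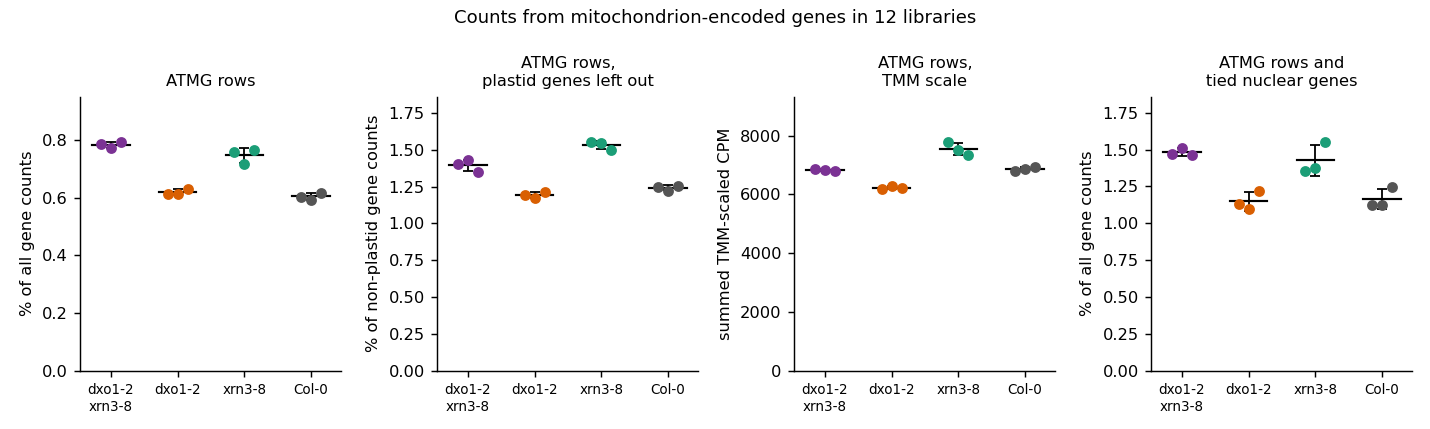
Percent of gene counts at ATMG rows, the same without plastid-encoded rows in the total, the summed TMM-scaled CPM, and the percent when the tied nuclear genes are added, for each of the 12 libraries. Points are libraries, horizontal lines are means and bars are SD (n = 3). On the left the double mutant (0.785%) and xrn3-8 (0.748%) stand above Col-0 (0.605%), and on the TMM scale dxo1-2 (6226 CPM) stands below Col-0 (6861 CPM).

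Most of the mitochondrial counts fell on few rows. Counts were not divided by gene length, so the order below is an order of counts and not of transcript numbers. The 10 highest members took 67.2 to 72.0% of the ATMG counts of a library, and ATMG01360 alone took 20.9 to 23.9%. It was followed by ATMG00160, ATMG00090, ATMG00070, ATMG00580, ATMG00060, ATMG00080, ATMG00640, ATMG00650 and ATMG01170, whose mean over the 12 libraries lay between 711 CPM (ATMG00160) and 179 CPM (ATMG01170). Replicates of the 30 highest members differed little. The median coefficient of variation was 7.77% in dxo1-2 xrn3-8, 3.62% in dxo1-2, 6.29% in xrn3-8 and 4.77% in Col-0. Among the other 74 members it was 22.1%, 15.4%, 20.9% and 18.0% in the same order of genotypes, so a small change was easier to resolve in the abundant members.

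Against Col-0, 17 members rose and 7 fell in the double mutant, 9 rose and 9 fell in dxo1-2, and 6 rose and 0 fell in xrn3-8 (edgeR quasi-likelihood test, adjusted p under 0.05). Changes are given as log2 changes, mutant over Col-0. Over all 21974 genes tested, the called share was 46.4% in the double mutant (24.4% higher, 22.0% lower), 42.1% in dxo1-2 (21.5% higher, 20.7% lower) and 34.4% in xrn3-8 (16.3% higher, 18.1% lower). Among the 103 members the called share was 23.3% in the double mutant, 17.5% in dxo1-2 and 5.83% in xrn3-8, so each count of members was below that of the genome. In xrn3-8 no member passed with a lower value at an unadjusted p under 0.05, while 13 passed with a higher one. Of 21747 nuclear genes tested, 4556 passed higher and 5010 lower at that threshold. DESeq2 called 12 members in xrn3-8, all higher, and 36.7% of all genes. In edgeR the xrn3-8 count was 18 with upper quartile scaling, 10 with library sizes from nuclear genes and 2 with those from the ATMG rows. All of these were higher. In dxo1-2 the split of 9 higher and 9 lower depended on the scaling, with 11 and 7 under upper quartile scaling and 17 and 4 with library sizes from the ATMG rows. The median log2 change of the members was 0.12 in the double mutant, 0.09 in dxo1-2 and 0.14 in xrn3-8, beside 0.02, 0.01 and -0.00 over all genes.

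The libraries of 26 members lay wholly above Col-0 and those of 8 wholly below it in the double mutant, 24 above and 22 below in dxo1-2, and 30 above and 1 below in xrn3-8. Of all genes, 55.6% had no overlap in the double mutant (28.9% above, 26.6% below), 55.7% in dxo1-2 (28.3% above, 27.4% below) and 47.1% in xrn3-8 (22.9% above, 24.2% below). Medians were also taken by abundance, with no test between the sets. In dxo1-2 the 30 highest had a median log2 change of -0.13 with 5 called higher and 7 lower, and the other 73 tested a median of 0.14 with 4 higher and 2 lower. In the double mutant the 30 highest had a median of 0.00 (5 higher, 4 lower) and the others 0.23 (12 higher, 3 lower), and in xrn3-8 the medians were 0.14 (3 higher, 0 lower) and 0.15 (3 higher, 0 lower). Leaving out 1 library moved some counts, so that dxo1-2 gave 11 calls without Col-0 replicate 2 and xrn3-8 gave 2 without xrn3-8 replicate 1.

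The steadiest falls were at 4 members that were lower in both genotypes carrying dxo1-2, and each kept its calls whichever library was left out. ATMG00480, the ATP synthase F0 subunit 8 (atp8) of the membrane part of the enzyme, had 56.9, 58.7 and 43.8 TMM-scaled CPM in dxo1-2 xrn3-8, 53.7, 46.4 and 51.5 in dxo1-2 and 84.9, 101 and 97.9 in xrn3-8, against 75.6, 90.7 and 93.8 in Col-0. All 6 libraries with dxo1-2 lay below all 6 without it. This gave a log2 change of -0.71 ± 0.12 (SE, adjusted p = 0.000206) in the double mutant and -0.78 ± 0.12 (SE, adjusted p = 0.000113) in dxo1-2 by edgeR's quasi-likelihood test, and 0.12 ± 0.12 (SE, adjusted p = 0.437) in xrn3-8.

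ATMG00110 had 16.9, 19.4 and 16.3 TMM-scaled CPM in dxo1-2 xrn3-8, 14.7, 14.1 and 15.5 in dxo1-2 and 26.4, 30.4 and 28.5 in xrn3-8, against 26.5, 25.3 and 23.6 in Col-0. Its dxo1-2 libraries were the lowest, the double mutant lay between them and Col-0 without overlap, and xrn3-8 overlapped Col-0. On the log2 scale the change was -0.52 ± 0.09 (SE, adjusted p = 0.000229) in the double mutant and -0.77 ± 0.09 (SE, adjusted p = 1.01e-05) in dxo1-2. ATMG00640, 1 of the 10 highest rows, had 166, 179 and 155 TMM-scaled CPM in dxo1-2 xrn3-8, 174, 166 and 176 in dxo1-2 and 263, 245 and 235 in xrn3-8, against 234, 233 and 217 in Col-0. The double mutant and dxo1-2 overlapped each other and lay below Col-0, with log2 changes of -0.45 ± 0.08 (SE, adjusted p = 0.000267) and -0.41 ± 0.08 (SE, adjusted p = 0.000691).

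ATMG00513 had 62.3, 60.9 and 59.7 TMM-scaled CPM in dxo1-2 xrn3-8, 68.99, 76.2 and 67.6 in dxo1-2 and 130.02, 102 and 99.7 in xrn3-8, against 98.6, 94.9 and 84.7 in Col-0. Its 3 double-mutant libraries were the lowest of all, dxo1-2 came next, and xrn3-8 was the highest. The fitted log2 change was -0.61 ± 0.10 (SE, adjusted p = 0.000197) in dxo1-2 xrn3-8, -0.39 ± 0.10 (SE, adjusted p = 0.00606) in dxo1-2 alone and 0.25 ± 0.10 (SE, adjusted p = 0.0627) in xrn3-8. Against xrn3-8 the double mutant was lower by a log2 change of -0.86 ± 0.10 (SE, adjusted p = 1.28e-05), and the other 3 of these members were lower in it as well, with -0.83 for ATMG00480, -0.70 for ATMG00110 and -0.57 for ATMG00640 (adjusted p = 6.6e-05, 2.31e-05 and 4.83e-05). Against dxo1-2, ATMG00110 was higher in the double mutant (0.25 ± 0.09 SE, adjusted p = 0.0435), and the other 3 did not pass the test.

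**Figure D2:**
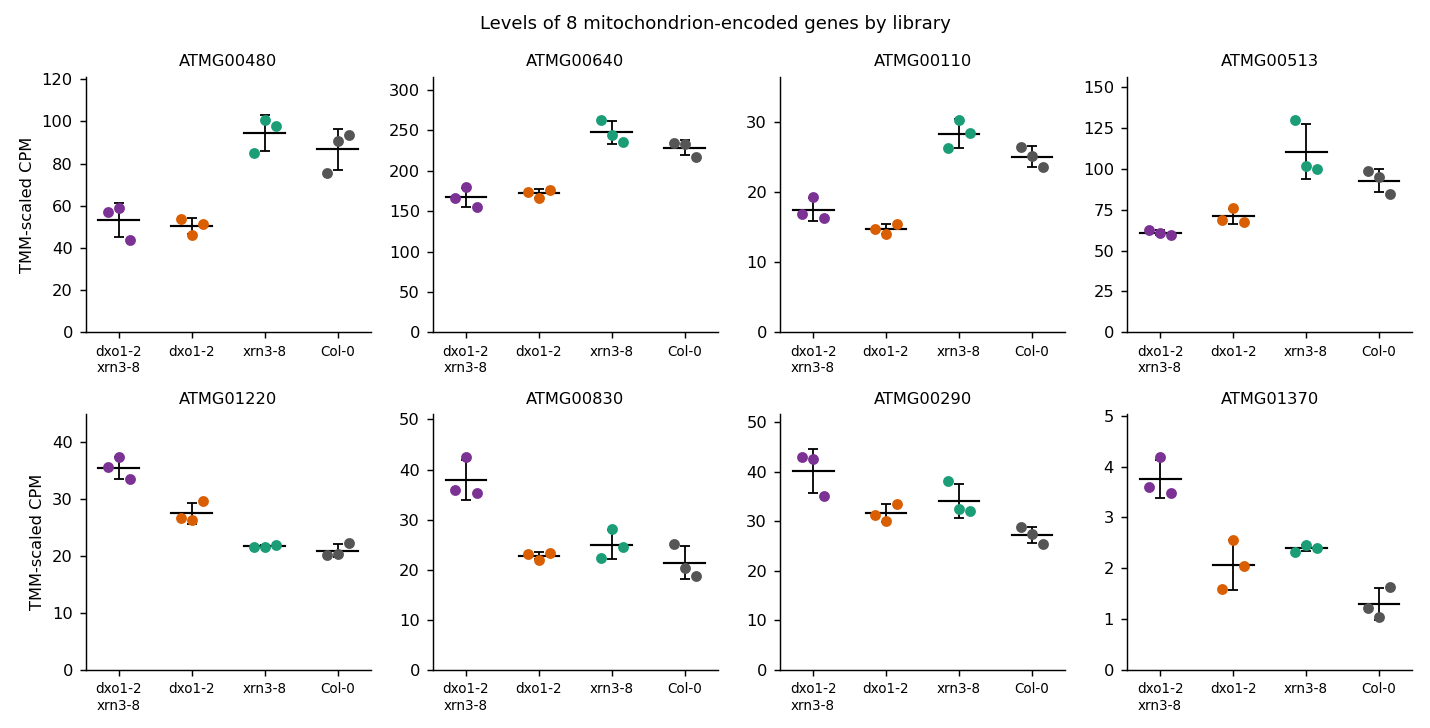
TMM-scaled CPM of 8 members in the 12 libraries, with the mean (line) and SD (bar, n = 3). In the upper row (ATMG00480, ATMG00640, ATMG00110 and ATMG00513) the double mutant and dxo1-2 stand below xrn3-8 and Col-0. In the lower row (ATMG01220, ATMG00830, ATMG00290 and ATMG01370) the double mutant has the highest mean.

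The most abundant members were slightly lower in dxo1-2. All 10 of the highest rows had dxo1-2 libraries below every Col-0 library, with log2 changes between -0.41 and -0.11, and 4 of them passed the test. Of all genes, 27.4% lay wholly below Col-0 in dxo1-2 and 20.7% were called lower. The 10 rows held 67.2 to 72.0% of the ATMG counts, so their fall is not separate from the lower TMM-scaled sum in dxo1-2. ATMG01360 had 1516, 1502 and 1619 TMM-scaled CPM in dxo1-2 xrn3-8, 1294, 1321 and 1298 in dxo1-2 and 1751, 1742 and 1724 in xrn3-8, against 1585, 1605 and 1585 in Col-0. Its dxo1-2 libraries were the lowest group, those of the double mutant overlapped Col-0, and xrn3-8 lay above Col-0. The log2 change of ATMG01360 was -0.29 ± 0.08 (SE, adjusted p = 0.00883) in dxo1-2, -0.04 ± 0.08 (SE, adjusted p = 0.685) in the double mutant and 0.13 ± 0.08 (SE, adjusted p = 0.228) in xrn3-8, and the double mutant was higher than dxo1-2 by 0.24 ± 0.08 (SE, adjusted p = 0.0273). Without dxo1-2 replicate 1 the dxo1-2 call of ATMG01360 was -0.26 (adjusted p = 0.0549).

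ATMG00650 and ATMG00070 also fell in dxo1-2, with log2 changes of -0.26 ± 0.07 (SE, adjusted p = 0.00976) and -0.21 ± 0.07 (SE, adjusted p = 0.0353), as did ATMG01190, the ATP synthase subunit 1 (atp1) of the catalytic head, with -0.23 ± 0.07 (SE, adjusted p = 0.0243). ATMG00650 lost its call without dxo1-2 replicate 2 (log2 change -0.22, adjusted p = 0.0583). ATMG00070 and ATMG01190 lost theirs without any 1 of the 6 dxo1-2 and Col-0 libraries, with adjusted p up to 0.179 for ATMG00070 without Col-0 replicate 3 and up to 0.106 for ATMG01190 without dxo1-2 replicate 3. With library sizes taken from the ATMG rows alone, which sets the mitochondrial totals equal, none of these falls passed (ATMG01360 -0.15, adjusted p = 0.154, ATMG00650 -0.12, adjusted p = 0.207, ATMG00070 -0.07, adjusted p = 0.481, ATMG01190 -0.09, adjusted p = 0.351), and the falls of ATMG00480, ATMG00110, ATMG00640 and ATMG00513 did. On that scale the median of all genes was 0.03 in dxo1-2 xrn3-8, 0.15 in dxo1-2 and -0.14 in xrn3-8.

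In xrn3-8 none of the 10 highest rows fell, and ATMG00090 rose (0.21 ± 0.08 SE, adjusted p = 0.0401). That call was lost without any xrn3-8 library, without Col-0 replicate 1 or 2 and without dxo1-2 xrn3-8 replicate 1, with adjusted p up to 0.105 without xrn3-8 replicate 1. The double mutant was lower than xrn3-8 at 5 of the 10 highest rows and higher than dxo1-2 at 3. Of all genes, 20.5% were called lower than xrn3-8 and 16.4% higher than dxo1-2 in the double mutant. In xrn3-8 against Col-0, 18.1% of all genes were called lower and 16.3% higher.

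At the ATMG row alone, some members fell in the double mutant and passed in no single mutant. ATMG01320, tied to NADH dehydrogenase 2B, a part of a core subunit of complex I, had 34.7, 34.5 and 38.2 TMM-scaled CPM in dxo1-2 xrn3-8, 40.9, 38.03 and 52.5 in dxo1-2 and 49.00, 50.4 and 44.7 in xrn3-8, against 50.8, 45.03 and 49.5 in Col-0. The double-mutant libraries were below all Col-0 libraries, and dxo1-2 and xrn3-8 overlapped Col-0. The difference on the log2 scale was -0.43 ± 0.11 (SE, adjusted p = 0.00387) in dxo1-2 xrn3-8, -0.14 ± 0.11 (SE, adjusted p = 0.289) in dxo1-2 alone and -0.01 ± 0.11 (SE, adjusted p = 0.949) in xrn3-8, and the call was kept in every leave-one-out fit. Summed with its tied nuclear gene, ATMG01320 was called lower in dxo1-2 as well by edgeR's quasi-likelihood test. The summed log2 change was -0.42 (adjusted p = 0.000729) in dxo1-2 xrn3-8 and -0.26 (adjusted p = 0.0164) in dxo1-2. ATMG01350 fell less in the double mutant (-0.26 ± 0.08 SE, adjusted p = 0.019), and its call was lost without dxo1-2 xrn3-8 replicate 1 or 2 or Col-0 replicate 1 or 3, with adjusted p up to 0.0935 without Col-0 replicate 1.

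The member with the largest fitted change, ATMG00100, was named after its values were seen, because its libraries overlapped. It had 38, 21 and 67 counts in dxo1-2 xrn3-8, 39, 174 and 65 in dxo1-2 and 101, 32 and 131 in xrn3-8, against 43, 195 and 183 in Col-0. The counts of 1 genotype differed several-fold between replicates, and only the low mean of the double mutant set it apart. The log2 change was -2.16 ± 0.70 (SE, adjusted p = 0.0208) in the double mutant, and it did not pass without dxo1-2 xrn3-8 replicate 1 or 2 or Col-0 replicate 2 or 3 (adjusted p 0.0641, 0.0752, 0.0689 and 0.0736).

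Of the 17 rises in the double mutant, 12 were outside the 30 highest members, a share near that of all tested members (73 of 103). ATMG01370 rose in all 3 mutants, with 3.59, 4.19 and 3.48 TMM-scaled CPM in dxo1-2 xrn3-8, 1.58, 2.55 and 2.05 in dxo1-2 and 2.33, 2.45 and 2.404 in xrn3-8, against 1.21, 1.04 and 1.64 in Col-0. Every double-mutant library lay above every other library. The change in log2 units was 1.54 ± 0.20 (SE, adjusted p = 3.06e-05) in the double mutant and 0.89 ± 0.21 (SE, adjusted p = 0.00407) in xrn3-8. In dxo1-2 it was 0.67 ± 0.21 (SE, adjusted p = 0.0185), with overlapping libraries, and did not pass without dxo1-2 replicate 2 (0.51, adjusted p = 0.0826), Col-0 replicate 1 (0.65, adjusted p = 0.0517) or Col-0 replicate 2 (0.55, adjusted p = 0.071).

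ATMG00270 also rose in all 3 mutants, with 3.25, 2.89 and 2.75 TMM-scaled CPM in dxo1-2 xrn3-8, 2.08, 2.31 and 2.14 in dxo1-2 and 2.46, 1.75 and 1.77 in xrn3-8, against 1.52, 1.21 and 1.05 in Col-0. The Col-0 libraries were the lowest group and did not overlap any mutant. Its log2 change was 1.23 ± 0.19 (SE, adjusted p = 0.000124) in dxo1-2 xrn3-8, 0.78 ± 0.19 (SE, adjusted p = 0.00488) in dxo1-2 alone and 0.65 ± 0.19 (SE, adjusted p = 0.0178) in xrn3-8. The xrn3-8 call was lost without xrn3-8 replicate 1 (0.48, adjusted p = 0.0851) or Col-0 replicate 3 (0.55, adjusted p = 0.069). ATMG00560, tied to an OB-fold nucleic acid-binding protein, was the third member called in all 3. It had 0.30 (edgeR adjusted p = 0.0109) in dxo1-2 xrn3-8, 0.32 (adjusted p = 0.00768) in dxo1-2 and 0.29 (adjusted p = 0.0172) in xrn3-8. With library sizes from the ATMG rows the xrn3-8 change of ATMG00560 was 0.15 and did not pass (adjusted p = 0.166).

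ATMG01220 had 35.5, 37.3 and 33.5 TMM-scaled CPM in dxo1-2 xrn3-8, 26.5, 26.2 and 29.5 in dxo1-2 and 21.5, 21.6 and 21.9 in xrn3-8, against 20.05, 20.4 and 22.2 in Col-0. The double mutant stood above dxo1-2, dxo1-2 stood above Col-0, and xrn3-8 overlapped Col-0. This gave a log2 change of 0.76 ± 0.07 (SE, adjusted p = 1.85e-06) in dxo1-2 xrn3-8, 0.39 ± 0.08 (SE, adjusted p = 0.000745) in dxo1-2 alone and 0.06 ± 0.08 (SE, adjusted p = 0.605) in xrn3-8. ATMG00830 had 35.9, 42.5 and 35.4 TMM-scaled CPM in dxo1-2 xrn3-8, 23.2, 21.9 and 23.3 in dxo1-2 and 22.3, 28.02 and 24.5 in xrn3-8, against 25.1, 20.4 and 18.8 in Col-0. Its double-mutant libraries were above all others, and the single mutants overlapped Col-0. On the log2 scale the change was 0.82 ± 0.11 (SE, adjusted p = 4.14e-05) in dxo1-2 xrn3-8, 0.09 ± 0.11 (SE, adjusted p = 0.555) in dxo1-2 alone and 0.22 ± 0.11 (SE, adjusted p = 0.149) in xrn3-8.

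Of the other members named in the double mutant, ATMG00290, ATMG00990, ATMG01090 and ATMG00970 kept their rise whichever library was left out, and the first 3 are described with their complexes below. ATMG00970 had a log2 change of 0.48 ± 0.13 (SE, adjusted p = 0.00979), and also rose in xrn3-8 (0.46 ± 0.13 SE, adjusted p = 0.0155), where the call was lost without xrn3-8 replicate 3 (0.34, adjusted p = 0.0832) or Col-0 replicate 1 (0.39, adjusted p = 0.0623). ATMG01210 (0.69 ± 0.26 SE, adjusted p = 0.0378), ATMG00040 (0.56 ± 0.16 SE, adjusted p = 0.00906), ATMG00380 (0.52 ± 0.16 SE, adjusted p = 0.0183) and ATMG00280 (0.43 ± 0.13 SE, adjusted p = 0.0132) rose as well. Their calls hung on single libraries. Without dxo1-2 xrn3-8 replicate 3 the log2 change was 0.46 for ATMG01210 (adjusted p = 0.167), 0.32 for ATMG00040 (adjusted p = 0.0513) and 0.32 for ATMG00280 (adjusted p = 0.0642), and without dxo1-2 xrn3-8 replicate 1 it was 0.49 for ATMG00380 (adjusted p = 0.0537). ATMG01210 was also lost without dxo1-2 xrn3-8 replicate 1 or Col-0 replicate 2 or 3, and ATMG00280 without Col-0 replicate 3. By its note ATMG00280 was tied to the catalytic domain of a ribulose bisphosphate carboxylase large chain. Whether plastid reads add to its count was not tested.

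In dxo1-2 alone, ATMG00690 (0.56 ± 0.13 SE, adjusted p = 0.00342) and ATMG01130 (0.39 ± 0.07 SE, adjusted p = 0.000369) rose and kept their calls with every library left out, and ATMG01130 rose in the double mutant too (0.27 ± 0.07 SE, adjusted p = 0.00482). ATMG00380 (0.46 ± 0.17 SE, adjusted p = 0.0356), ATMG01120 (0.24 ± 0.08 SE, adjusted p = 0.0254) and ATMG00020 (0.73 ± 0.27 SE, adjusted p = 0.0437) rose less securely. ATMG00020 had 105, 77.3 and 129 TMM-scaled CPM in dxo1-2 xrn3-8, 133, 213 and 109 in dxo1-2 and 170.02, 87.6 and 88.5 in xrn3-8, against 80.7, 90.8 and 103 in Col-0. Its level spread widely within dxo1-2 and xrn3-8, and without dxo1-2 replicate 2 its log2 change was 0.42 (adjusted p = 0.232). It was also lost without any Col-0 library or dxo1-2 xrn3-8 replicate 1, and DESeq2 did not call it (adjusted p = 0.0919). ATMG00020 was on the list prepared for mitochondrion-encoded rRNA, and rRNA was removed before these libraries were made. Its level can also depend on how complete that removal was, which was not tested. ATMG00380 was lost without dxo1-2 replicate 2 or 3 or any Col-0 library (adjusted p up to 0.107), and ATMG01120 without dxo1-2 replicate 2 or Col-0 replicate 2 or 3 (adjusted p up to 0.0864).

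**Figure D3:**
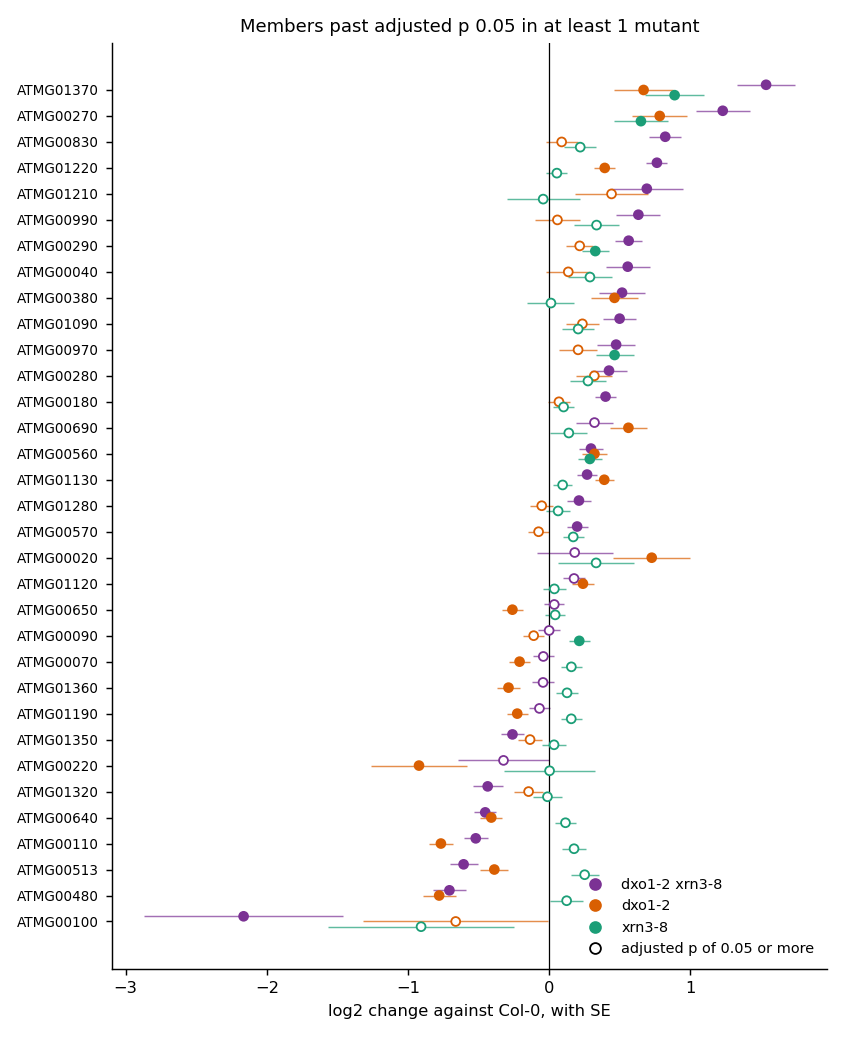
Log2 changes against Col-0 with SE for the members called in at least 1 mutant, ordered by the double mutant. Filled points passed an adjusted p of 0.05. ATMG01370 (1.54 in the double mutant) is at the upper end, and filled points number 24 for the double mutant, 18 for dxo1-2 and 6 for xrn3-8. Toward the lower end ATMG00480, ATMG00513, ATMG00110 and ATMG00640 are filled in the double mutant and dxo1-2 with xrn3-8 to the right of 0.

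Over the 3 mutants 21 members rose and 12 fell in at least 1 comparison with Col-0. Of the rises, 6 were called in both dxo1-2 and the double mutant, 5 in both xrn3-8 and the double mutant and 3 in all 3, while 9 were called in the double mutant and in neither single mutant. Of the falls, 4 were called in both dxo1-2 and the double mutant and 3 in the double mutant and in neither single mutant. These comparisons share the Col-0 libraries. The double mutant differed from dxo1-2 at 15 members, 14 higher and 1 lower (background 31.8%, 16.4% higher and 15.5% lower), and from xrn3-8 at 20 members, 8 higher and 12 lower (background 43.5%, 22.9% higher and 20.5% lower). With library sizes from the ATMG rows the splits were 4 higher and 8 lower against dxo1-2 and 17 higher and 5 lower against xrn3-8, and upper quartile scaling gave 7 higher and 17 lower against xrn3-8. No overlap was found for 26 members above and 6 below dxo1-2 (background 45.2%, 23.2% above and 22.0% below), and for 13 above and 20 below xrn3-8 (background 50.9%, 26.2% above and 24.6% below). Against dxo1-2 the count was 8 without any 1 dxo1-2 library or dxo1-2 xrn3-8 replicate 1 and 9 without dxo1-2 xrn3-8 replicate 2, and against xrn3-8 it was 13 without dxo1-2 xrn3-8 replicate 1.

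The interaction term, which is what remains of the log2 change in dxo1-2 xrn3-8 after those of dxo1-2 and xrn3-8 are subtracted, was called at 3 of the 103 members (background 20.9%, 12.2% higher and 8.67% lower). It was positive at ATMG00830 (0.51 ± 0.16 SE, adjusted p = 0.0343) and ATMG01220 (0.31 ± 0.11 SE, adjusted p = 0.0478), and negative at ATMG00513 (-0.47 ± 0.14 SE, adjusted p = 0.0283). Upper quartile scaling gave 0 positive and 5 negative calls, with ATMG00830 (0.40, adjusted p = 0.0846) and ATMG01220 (0.21, adjusted p = 0.186) not passing. Without dxo1-2 replicate 2, xrn3-8 replicate 1 or dxo1-2 xrn3-8 replicate 2 no member was called, and without dxo1-2 replicate 1, xrn3-8 replicate 3 or Col-0 replicate 2 or 3 only 1 was. Without dxo1-2 xrn3-8 replicate 3 there were 8. At an unadjusted p under 0.05 there were 3 members with a positive and 8 with a negative term.

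Products were taken from notes at nuclear genes, and a best protein match does not establish that a row encodes a working subunit. Members without such a note, ATMG00640 among them, could not be placed. By described product, 22 members could be placed. Of these, 7 rose and 2 fell in the double mutant, 1 rose and 3 fell in dxo1-2, and 2 rose and 0 fell in xrn3-8, with median log2 changes of 0.05, -0.07 and 0.11. In the same order, 46.4% (24.4% higher), 42.1% (21.5% higher) and 34.4% (16.3% higher) of all genes were called. Complex I, the entry point of electrons from NADH, had 3 described members. ATMG00990 (NADH dehydrogenase 3, nad3) rose in the double mutant (0.63 ± 0.16 SE, adjusted p = 0.00433), with 10.6, 12.5 and 9.82 TMM-scaled CPM in dxo1-2 xrn3-8, 7.61, 5.82 and 8.67 in dxo1-2 and 9.13, 8.998 and 8.69 in xrn3-8, against 7.12, 5.65 and 8.48 in Col-0. Its double-mutant libraries were above all libraries of the other 3 genotypes. ATMG01275, tied to NADH dehydrogenase 1A, had -0.07 in dxo1-2 xrn3-8, -0.13 in dxo1-2 and 0.10 in xrn3-8 and passed in none, and ATMG01320 was described above.

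nad3 is followed on the same strand, 45 bases downstream, by ATMG00980 (rps12), a protein of the small ribosomal subunit. ATMG00980 had 7.13, 6.27 and 7.71 TMM-scaled CPM in dxo1-2 xrn3-8, 6.56, 6.72 and 5.66 in dxo1-2 and 8.93, 6.79 and 7.05 in xrn3-8, against 7.103, 6.35 and 6.99 in Col-0. Its groups overlapped, with log2 changes of 0.05 ± 0.13 (SE, adjusted p = 0.789) in the double mutant, -0.11 in dxo1-2 and 0.15 in xrn3-8. The neighbours thus differed in call, and their difference itself was not tested.

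Complex III, which passes electrons from ubiquinol to cytochrome c, was represented by ATMG00220 (cob) and ATMG00590, tied to a cytochrome b/b6 protein. ATMG00220 had few counts, with 121, 54 and 65 counts in dxo1-2 xrn3-8, 47, 38 and 41 in dxo1-2 and 88, 96 and 78 in xrn3-8, against 44, 81 and 94 in Col-0. After TMM scaling the dxo1-2 libraries (0.627 to 0.665 CPM) lay below all Col-0 libraries, of which replicate 1 was the lowest (0.720 CPM), while in raw counts they overlapped it. The fitted log2 change was -0.92 ± 0.34 (SE, adjusted p = 0.0409) in dxo1-2, -0.32 in the double mutant and 0.00 in xrn3-8, and the dxo1-2 call was lost without any dxo1-2 library or Col-0 replicate 2 or 3 (adjusted p up to 0.203). ATMG00590, at 80 to 172 counts per library, had -0.39 in dxo1-2 xrn3-8, -0.52 in dxo1-2 and 0.10 in xrn3-8. This row passed in none, and its sum with the tied nuclear gene is given below. Complex IV, the terminal oxidase, had ATMG00730 (cox3), which passed in no mutant against Col-0 (0.09 in dxo1-2 xrn3-8, -0.19 in dxo1-2 and 0.13 in xrn3-8), and ATMG01280, tied to a cytochrome c oxidase subunit II-like domain, with 0.21 ± 0.08 (SE, adjusted p = 0.0481) in the double mutant. The call of ATMG01280 was lost in 8 of 12 leave-one-out fits, with adjusted p up to 0.185 without Col-0 replicate 3. Both rows were higher in the double mutant than in dxo1-2 (0.28 ± 0.07 SE, adjusted p = 0.00974 for ATMG00730 and 0.26 ± 0.08 (SE, adjusted p = 0.0247) for ATMG01280).

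The 5 rows placed with the ATP synthase by their notes did not move as 1 group. ATMG00640 and ATMG01170 were on the list prepared for complexes III, IV and V but had no described product, so they are left out here. That list did not hold ATMG01090, ATMG00590 or ATMG01280. ATMG00480 (atp8) fell and ATMG01190 (atp1) fell slightly in dxo1-2, as given above. ATMG01080 (atp9) had -0.03 in dxo1-2 xrn3-8, -0.38 in dxo1-2 and 0.06 in xrn3-8, and ATMG00410, tied to ATPase subunit 6-1, had 0.06 in dxo1-2 xrn3-8, 0.00 in dxo1-2 and 0.39 in xrn3-8, and neither passed in any mutant. ATMG01090, tied by its note to a mitochondrial ATP synthase 9, rose in the double mutant (0.50 ± 0.12 SE, adjusted p = 0.00273), with 59.1, 54.4 and 68.4 TMM-scaled CPM in dxo1-2 xrn3-8, 51.5, 52.5 and 47.6 in dxo1-2 and 59.5, 41.9 and 47.1 in xrn3-8, against 40.7, 44.98 and 42.98 in Col-0. Its double-mutant libraries were above all Col-0 libraries.

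Among the rows for cytochrome c maturation, which attaches heme to cytochrome c, ATMG00180 (ccmFC) rose in the double mutant (0.40 ± 0.08 SE, adjusted p = 0.000575), with 30.2, 26.4 and 29.04 TMM-scaled CPM in dxo1-2 xrn3-8, 21.8, 23.8 and 22.5 in dxo1-2 and 24.6, 22.2 and 22.9 in xrn3-8, against 21.5, 22.1 and 21.2 in Col-0. The double mutant was above every other library, and it was also higher than dxo1-2 (0.33 ± 0.07 SE, adjusted p = 0.0039) and xrn3-8 (0.30 ± 0.07 SE, adjusted p = 0.00514). ATMG00900 (ccmC) had -0.37 in dxo1-2 xrn3-8, 0.09 in dxo1-2 and -0.13 in xrn3-8 and ATMG00960, tied to a cytochrome c assembly protein, had 0.24 in dxo1-2 xrn3-8, -0.08 in dxo1-2 and 0.09 in xrn3-8, and neither passed. Among rows described as ribosomal proteins ATMG00290 (rps4) rose in the double mutant (0.56 ± 0.10 SE, adjusted p = 0.000271) and in xrn3-8 (0.33 ± 0.10 SE, adjusted p = 0.0165), with 42.9, 42.6 and 35.1 TMM-scaled CPM in dxo1-2 xrn3-8, 31.3, 29.98 and 33.5 in dxo1-2 and 38.1, 32.3 and 31.96 in xrn3-8, against 28.8, 27.3 and 25.4 in Col-0. All 3 mutants lay above Col-0, and the xrn3-8 call was lost without xrn3-8 replicate 1 (0.24, adjusted p = 0.0795) or Col-0 replicate 3 (0.29, adjusted p = 0.0547). ATMG00560, called higher in all 3 mutants, was on the list prepared for ribosomal proteins and a maturase. Its note describes it only as an OB-fold protein, so it is not counted here. ATMG00210 (rpl5) had -0.76 in dxo1-2 xrn3-8, -0.25 in dxo1-2 and 0.01 in xrn3-8 and ATMG01270 (rps7) had -0.30 in dxo1-2 xrn3-8, -0.04 in dxo1-2 and 0.88 in xrn3-8, both at few counts and with no call at the ATMG row. ATMG01110, tied to a mitovirus RNA polymerase, had 0.23 in dxo1-2 xrn3-8, 0.21 in dxo1-2 and -0.14 in xrn3-8 and passed in none.

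Many of these rows were tied to a second row with counts of its own. For 27 of the 55 tied pairs every 50-base window of the nuclear gene also occurred in the mitochondrial genome of TAIR10.1, and over all pairs the median share of shared windows was 99.1%. The tied nuclear genes held 290163 to 568855 counts per library, 43.9 to 50.6% of their joint count with the ATMG rows. The split was uneven between genes. For atp9, whose sequence is printed above, AT2G07671 held 112685 to 305358 counts per library and ATMG01080 2350 to 5996. For cob, AT2G07727 held 37432 to 65954 counts and ATMG00220 38 to 121. For ccmFC the order was the other way, with 78 to 189 counts at AT2G07815 and 1190 to 2570 at ATMG00180. Reads aligned to more than 1 place (9.80 to 11.2% of all reads) were counted at no gene, and which genome the reads counted at either row came from was not tested.

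**Figure D4:**
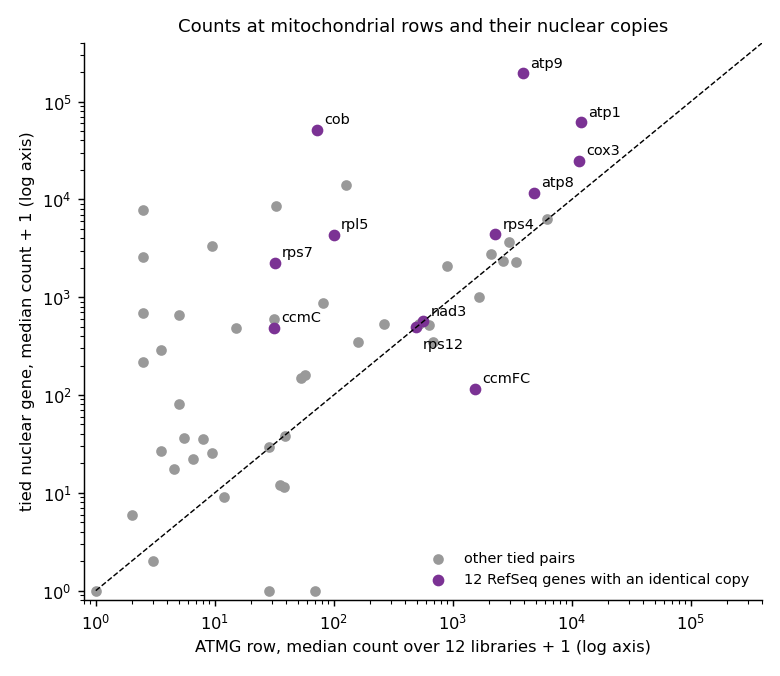
Median count over 12 libraries, plus 1, of each ATMG row (x axis, log) and of the nuclear gene tied to it (y axis, log). Purple points are the 12 RefSeq genes identical to chromosome 2 in TAIR10.1, grey points are the other tied pairs, and the dashed line marks equal counts. atp9 and cob lie far above the line and ccmFC below it.

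Calls were also made at the nuclear rows. Of the 50 tied nuclear genes tested, 11 rose and 5 fell in the double mutant, 7 rose and 5 fell in dxo1-2, and 4 rose and 0 fell in xrn3-8, with medians of 0.21, 0.12 and 0.14. The called shares of 32%, 24% and 8% were all below those of all genes (46.4%, 42.1% and 34.4%). The 5 that fell in dxo1-2 and in the double mutant include AT2G07707, the atp8 row, with 127, 122 and 129.6 TMM-scaled CPM in dxo1-2 xrn3-8, 154, 118 and 128 in dxo1-2 and 216, 229 and 216 in xrn3-8, against 204, 232 and 225 in Col-0. All 6 libraries with dxo1-2 lay below the 6 without it, as at ATMG00480. The difference on the log2 scale was -0.81 ± 0.09 (SE, adjusted p = 9.33e-06) in dxo1-2 xrn3-8, -0.72 ± 0.09 (SE, adjusted p = 3.1e-05) in dxo1-2 alone and 0.00 in xrn3-8.

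AT2G07727, the cob row, had 663, 645 and 639.9 TMM-scaled CPM in dxo1-2 xrn3-8, 618, 637 and 625 in dxo1-2 and 919, 847 and 824 in xrn3-8, against 833, 849 and 833 in Col-0. The double mutant and dxo1-2 lay below Col-0, with log2 changes of -0.37 ± 0.08 (SE, adjusted p = 0.00113) and -0.42 ± 0.08 (SE, adjusted p = 0.000472), and xrn3-8 had 0.04. AT2G07718, tied to ATMG00590 (cytochrome b/b6), fell further, with -0.62 ± 0.08 (SE, adjusted p = 1.28e-05) in the double mutant and -0.65 ± 0.08 (SE, adjusted p = 1.17e-05) in dxo1-2. AT2G07725, the rpl5 row, had -0.49 ± 0.07 (SE, adjusted p = 3.53e-05) and -0.29 ± 0.07 (SE, adjusted p = 0.00316), and AT2G07689, the row of NADH dehydrogenase 2B, -0.40 ± 0.10 (SE, adjusted p = 0.00388) and -0.37 ± 0.10 (SE, adjusted p = 0.00766). In the mitochondrial genome cob and rpl5 lie 1903 bases apart on the same strand. None of these 5 nuclear rows passed in xrn3-8, where their log2 changes were between 0.00 and 0.10.

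In the double mutant, rises were called at both rows for rps4, the OB-fold protein, ATMG01220, ATMG01210 and ATMG01090. The log2 changes were 0.58 at AT2G07798 (tied to ATMG01220), 0.88 at AT2G07826 (ATMG01210) and 0.39 at AT2G07777 (ATMG01090). Their adjusted p by edgeR's quasi-likelihood test were 7.04e-05, 0.000112 and 0.0201. AT2G07798 was also called in dxo1-2 (0.36), as was ATMG01220. AT2G07734 (rps4) had 0.45 in dxo1-2 xrn3-8, 0.05 in dxo1-2 and 0.25 in xrn3-8 and AT2G07715 (OB-fold protein) 0.45 in dxo1-2 xrn3-8, 0.39 in dxo1-2 and 0.45 in xrn3-8, with calls in the double mutant and xrn3-8 at both and in dxo1-2 at AT2G07715. AT2G07678, tied to ATMG00920, had 0.56 in dxo1-2 xrn3-8, 0.44 in dxo1-2 and 0.24 in xrn3-8, while ATMG00920 itself passed in no mutant (adjusted p = 0.367, 0.702 and 0.838 in the same order). The large atp9 row AT2G07671 passed in none (0.01 in dxo1-2 xrn3-8, -0.31 in dxo1-2 and 0.12 in xrn3-8).

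**Figure D5:**
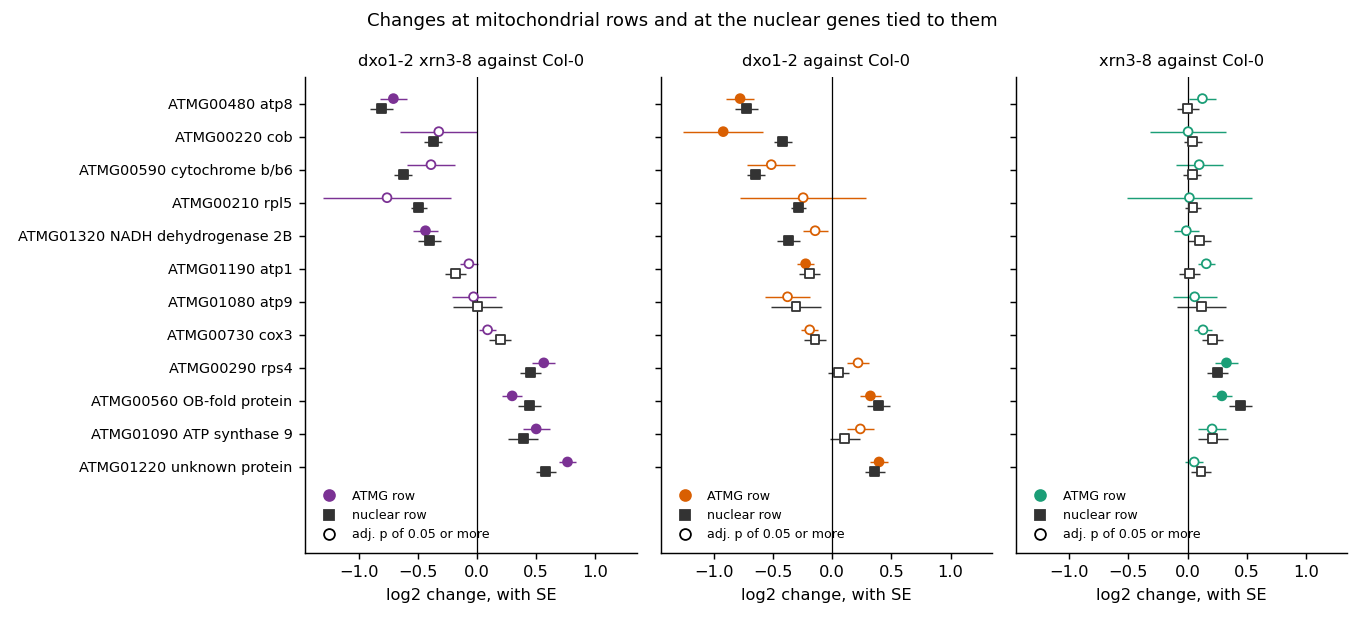
Log2 changes against Col-0 with SE at 12 ATMG rows (circles) and at the nuclear genes tied to them (squares), in the double mutant, dxo1-2 and xrn3-8. Filled symbols passed an adjusted p of 0.05, and the 12 pairs were chosen after their values were seen. At atp8 both rows are filled and left of 0 in the double mutant and dxo1-2, and in xrn3-8 no row is filled on the left.

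When each of the 40 tied members was summed with its nuclear genes before the fit, 11 rose and 5 fell in the double mutant, 5 rose and 5 fell in dxo1-2, and 5 rose and 0 fell in xrn3-8. As ATMG rows alone the same 40 gave 10 and 2, 2 and 3, and 3 and 0, and the calls made in the same direction both ways numbered 10, 4 and 3. The 5 summed falls were at the same members in dxo1-2 xrn3-8 and dxo1-2, namely ATMG00210, ATMG00220, ATMG00480, ATMG00590 and ATMG01320. In that order of genotypes ATMG00590 had -0.62 and -0.65 (edgeR adjusted p = 1.31e-05 and 1.17e-05). ATMG00210 had -0.50 and -0.29 (edgeR adjusted p = 2.94e-05 and 0.00306). The share of gene counts at ATMG rows and tied nuclear genes together was 1.48 ± 0.0258% in dxo1-2 xrn3-8, 1.15 ± 0.0639% in dxo1-2 and 1.43 ± 0.107% in xrn3-8, against 1.17 ± 0.0697% in Col-0 (SD, n = 3 each). The double mutant and xrn3-8 lay above Col-0 (exact permutation p = 0.1, adjusted p = 0.15) and dxo1-2 overlapped it (exact permutation p = 0.7, adjusted p = 0.7). With plastid-encoded rows left out of the total, the joint share was 2.64% in dxo1-2 xrn3-8 and 2.21% in dxo1-2, against 2.39% in Col-0. Both then overlapped Col-0 (exact permutation p = 0.2 and 0.3, adjusted p = 0.3 for each). Only xrn3-8 (2.92%) still lay above Col-0 on that scale (exact permutation p = 0.1, adjusted p = 0.3).

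The nuclear-encoded partners of the mitochondrial products were taken from lists. Of 27 nuclear genes for complex I, 4 rose and 6 fell in the double mutant, 7 rose and 1 fell in dxo1-2, and 1 rose and 6 fell in xrn3-8, with medians of -0.01, 0.10 and -0.15. Of 43 for complexes II to V and cytochrome c, 5 rose and 7 fell in the double mutant, 7 rose and 0 fell in dxo1-2, and 2 rose and 10 fell in xrn3-8, with medians of 0.01, 0.08 and -0.17. The called shares for complex I (37%, 29.6% and 25.9%) and for complexes II to V (27.9%, 16.3% and 27.9%) were below the 46.4%, 42.1% and 34.4% of all genes. SDH2-1, an iron-sulfur subunit of complex II, rose by 1.21 ± 0.08 (SE, adjusted p = 5.23e-08) in dxo1-2 xrn3-8 and by 0.81 ± 0.08 (SE, adjusted p = 2.56e-06) in the dxo1-2 seedlings. CYTC-2, a cytochrome c, fell in xrn3-8 (-0.69 ± 0.10 SE, adjusted p = 0.000112). In xrn3-8 the members had a median of 0.14 with 6 called higher, beside these negative medians.

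Of 31 nuclear genes for mitochondrial transcription, RNA processing and genome maintenance, 12 rose and 1 fell in the double mutant, 12 rose and 0 fell in dxo1-2, and 5 rose and 0 fell in xrn3-8, with medians of 0.33, 0.22 and 0.12. The called shares were 41.9%, 38.7% and 16.1%, beside 46.4%, 42.1% and 34.4% of all genes. Called higher were 24.4%, 21.5% and 16.3% of all genes. PMH1, a mitochondrial RNA helicase, rose by 1.53 ± 0.19 (SE, adjusted p = 2e-05) in dxo1-2 xrn3-8, by 0.82 ± 0.20 (SE, adjusted p = 0.00399) in the dxo1-2 seedlings and by 1.11 ± 0.20 (SE, adjusted p = 0.000566) in those of xrn3-8. PMH2, its relative, rose in the double mutant (1.13 ± 0.13 SE, adjusted p = 6.65e-06) and in xrn3-8 (1.08 ± 0.13 SE, adjusted p = 2.06e-05). MORF3, an RNA editing factor, rose in dxo1-2 (0.89 ± 0.14 SE, adjusted p = 0.000134). Of 15 tested genes of the mitochondrial stress response, 3 rose and 4 fell in the double mutant, 1 rose and 7 fell in dxo1-2, and 0 rose and 6 fell in xrn3-8, and the interaction was called positive at 9 and negative at 0. The called shares were 46.7%, 53.3% and 40.0% in the mutants, beside 46.4%, 42.1% and 34.4% of all genes, of which 20.9% were called in the interaction (12.2% positive). BCS1, an AAA-type ATPase gene induced by mitochondrial stress, fell in all 3 mutants, with -1.48 ± 0.19 (SE, adjusted p = 2.69e-05) in dxo1-2 xrn3-8, -2.34 ± 0.20 (SE, adjusted p = 7.53e-07) in the dxo1-2 seedlings and -1.27 ± 0.19 (SE, adjusted p = 0.000175) in those of xrn3-8. AT2G21640, a marker of oxidative stress, rose by 1.75 ± 0.14 (SE, adjusted p = 2.07e-07) in dxo1-2 xrn3-8 and by 0.94 ± 0.14 (SE, adjusted p = 7.79e-05) in the dxo1-2 seedlings.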

How the data were processed

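Total RNA was extracted with Trizol and made into stranded TruSeq libraries after removal of plant leaf rRNA with Ribo-Zero, per the labels' protocols. The authors deposited whole-number counts per gene for each library. The submitters' processing notes name HISAT2 2.0.4, SAMtools 1.1, HTSeq 0.6.0 and the TAIR10 build. The strand setting and the annotation version are not given in the sources used here, so overlapping and antisense rows are uncertain. Each deposited file ends with 5 summary lines of counts, which were kept out of library sizes and tests. Reads with no feature were 6.99 to 11.1% of all reads, ambiguous reads 0.900 to 1.21% and reads not aligned uniquely 9.80 to 11.2%. The reads carry no molecular identifiers, and p-values measure the spread between these libraries.

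All genes of the 12 libraries entered 1 fit with a coefficient for each genotype (edgeR 4.0.16 in R 4.3.3, TMM normalization, genes kept by filterByExpr at min.count 10 and min.total.count 15, quasi-likelihood F-test, Benjamini-Hochberg adjustment over 21974 genes). The interaction is the double mutant minus both single mutants plus Col-0. Shares of counts were compared by the exact two-sided permutation test over 3 against 3 libraries, adjusted over the 3 mutants. Alternatives were DESeq2 1.42.0, other scalings, filters, a fold threshold, the replicate number as a block and leaving out each library.

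Members named are the 10 with the highest mean CPM, up to 12 per comparison and direction past an adjusted p of 0.05 with libraries that do not overlap Col-0, those called in the interaction, and those with a described product. Up to 3 nuclear genes per list and mutant were named. Members and lists were chosen with earlier results of these data known. Gene names of ATMG rows were given only where the RefSeq annotation of TAIR10.1 paired the identifier with a product or tied a nuclear gene to it. Of the lists prepared for complexes of mitochondrion-encoded genes, identifiers that were not annotated there carry no name. Where a place on such a list is mentioned, it could not be checked against that annotation.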

Additional observations from a re-analysis of the deposited data

Results flagged for a closer look

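At 3 members the effect of 1 mutation differed by whether the other was present, by the interaction term of edgeR's quasi-likelihood test. ATMG00830 had an interaction of 0.51 on the log2 scale (adjusted p = 0.0343), with its 3 double-mutant libraries above those of the other 3 genotypes, and the call was lost in 8 of 12 fits that leave out 1 library and under upper quartile scaling (0.40, adjusted p = 0.0846). At ATMG00513 the interaction was -0.47 (adjusted p = 0.0283), with the double mutant lowest and xrn3-8 highest, and it was lost in 4 of the 12 and kept under the 4 other scalings. At ATMG01220 it was 0.31 (adjusted p = 0.0478), and it was lost in 10 of the 12, under all 4 other scalings (adjusted p 0.0513 to 0.186), with no filter beyond 1 count (0.103), with the replicate block (0.0687) and when summed with its tied nuclear genes (0.0983). The called share over all genes was 20.9%.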

How the results depend on the processing

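Counts of members called in dxo1-2 xrn3-8, dxo1-2 and xrn3-8 against Col-0 (24, 18 and 6), in the double mutant against dxo1-2 (15) and xrn3-8 (20) and in the interaction (3) moved by at most 1.5 times except as follows. For xrn3-8 the count was 18 with upper quartile scaling, 10 with TMM and library sizes from nuclear genes, 12 by DESeq2 and 2 with library sizes from ATMG genes. The interaction, 2 higher and 1 lower, was called at 5 members with upper quartile scaling (0 higher and 5 lower) and at 5 by DESeq2 (3 and 2). In a fit of only the genotypes compared, the double mutant differed from xrn3-8 at 13 (not run for the interaction, which needs all 4). With at least a 2-fold change asked, 3 remained in the double mutant, 0 in dxo1-2, 0 in xrn3-8, 1 in the double mutant against dxo1-2, 1 against xrn3-8 and 0 in the interaction. Library sizes from ATMG genes split the calls differently, with 17 higher and 4 lower in dxo1-2, 4 and 8 in the double mutant against dxo1-2, and 17 and 5 against xrn3-8. Leaving out 1 library gave 18 to 25 in the double mutant, 11 to 23 in dxo1-2, 2 to 8 in xrn3-8, 8 to 17 and 13 to 20 in the double mutant against dxo1-2 and xrn3-8, and 0 to 8 in the interaction. Deviations of same-numbered libraries over all genes tested had correlations of -0.322 to 0.353 over 18 pairs (median 0.012). Over the 36 pairs with different numbers they were -0.461 to 0.532 (median -0.006). With 3 libraries per genotype, such wide ranges cannot show whether same-numbered libraries share a batch. With the replicate block the counts were 23, 15, 5, 11, 18 and 2. The alternatives that follow were chosen after seeing the data. With tied nuclear genes added, the difference of the share from Col-0 in dxo1-2 was -0.0165 percentage points, and with TMM-scaled sums it was -634.8 CPM in dxo1-2 and -37.0 CPM in the double mutant, against positive differences of the share itself. Summed with its tied nuclear genes, ATMG00900 had 0.35 (adjusted p = 0.0231) in the double mutant, against -0.37 alone. The cause of these differences was not tested. Of 50 calls of named members, 25 held in all 12 fits without 1 library. Depth limits the members with few counts.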
